A study of Mus musculus with 6 samples.

Results

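The miR-181 family was examined here as the 6 hairpin genes Mir181a-1, Mir181a-2, Mir181b-1, Mir181b-2, Mir181c and Mir181d. They were taken by gene name, as the rows of the miRNA count table whose identifier carries one of these names in GENCODE M21, and all 6 were found among its 1973 rows. The table holds small RNA sequencing of exosomes released into the medium by HN9.10e cells, an immortalized wild-type mouse embryonic hippocampal line, in 6 libraries. In the control group (3 libraries) the cells were untreated, and in the Cer group (3 libraries) they received 100 nM ceramide (Cer). The ceramide reagent listed by the study is C6-Cer, a short-chain analogue of this membrane sphingolipid that passes into cells. Exosomes of both groups were collected after 48 h, with a precipitation kit, from cells grown with fetal bovine serum. The comparison asked which exosomal miRNAs differed after Cer treatment.

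A miRNA is cut from the arms of a hairpin, and it represses messenger RNAs that pair with its seed, the bases 2 to 8 from its 5′ end. Members with the same seed can therefore act on many of the same targets. The miR-181 family is conserved among vertebrates and is best known from developing T lymphocytes, where miR-181a tunes the sensitivity of the antigen receptor, and it is also present in neurons and astrocytes of the brain. Counts were made per hairpin gene, so the miRNAs of the 5′ arm (5p) and of the 3′ arm (3p) share a single count.

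The family lies in 3 clusters of 2 hairpins each on GRCm38. Mir181a-1 (from 137966455 to 137966541) and Mir181b-1 (from 137966639 to 137966718) are on the plus strand of chromosome 1, with 97 bases between them, in exon sequence of the long noncoding RNA A430106G13Rik. Mir181a-2 (from 38852735 to 38852810) and Mir181b-2 (from 38853830 to 38853918) are on the plus strand of chromosome 2, inside an intron of Nr6a1, which is on the minus strand. Mir181c (from 84178873 to 84178961) and Mir181d (from 84178716 to 84178787) are on the minus strand of chromosome 8, 85 bases apart, inside an intron of Nanos3, which is on the same strand. The first 2 clusters encode the same pair of 5p miRNAs, and the cluster on chromosome 8 encodes a 5p miRNA of its own from each hairpin.

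The 4 mature 5p sequences are shown because they define the family. They come from RefSeq (GRCm38.p6), all 6 genes were matched by symbol, and capitals mark the seed.
miR-181a-5p: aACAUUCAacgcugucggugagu
miR-181b-5p: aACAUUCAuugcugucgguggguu
miR-181c-5p: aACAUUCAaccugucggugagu
miR-181d-5p: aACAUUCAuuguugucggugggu
All 4 carry the seed ACAUUCA, and no other of the 1679 mature mouse miRNAs in the same RefSeq table carries it. Outside the seed they fall into closer pairs. With positions counted from 1 at the 5′ end, miR-181b-5p and miR-181d-5p differed over their first 23 bases by a single substitution, C12U. From miR-181a-5p to miR-181b-5p there were 3 substitutions, A9U, C10U and A21G. Removal of the base at position 11 of miR-181a-5p gives miR-181c-5p with no substitution left.

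The 3p sequences do not share this seed. The seed of miR-181a-1-3p was also that of miR-181c-3p, the seed of miR-181b-1-3p was also that of miR-181b-2-3p, and miR-181a-2-3p and miR-181d-3p each had a seed found in no other mature sequence of the table.

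The hairpins of the chromosome 1 and 2 clusters are shown because reads of the same 5p miRNA can be placed on both. Capitals mark the mature 5p and 3p sequences.
Mir181a-1: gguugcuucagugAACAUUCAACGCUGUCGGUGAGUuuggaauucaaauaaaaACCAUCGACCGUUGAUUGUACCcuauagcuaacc
Mir181a-2: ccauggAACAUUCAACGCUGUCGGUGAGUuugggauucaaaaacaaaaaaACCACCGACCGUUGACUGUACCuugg
Mir181b-1: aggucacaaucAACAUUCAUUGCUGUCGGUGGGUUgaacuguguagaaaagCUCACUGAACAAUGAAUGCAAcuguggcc
Mir181b-2: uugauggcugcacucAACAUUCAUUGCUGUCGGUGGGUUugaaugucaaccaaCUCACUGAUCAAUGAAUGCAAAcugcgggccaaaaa
The hairpins Mir181a-1 and Mir181a-2 share an unbroken stretch of 28 bases that contains the whole 5p sequence, and Mir181b-1 and Mir181b-2 share one of 26 bases. Mir181c shares 17 bases with Mir181a-1. No hairpin outside the family, among the 1894 rows with a GENCODE name, shares a stretch of 18 bases with any of the 6.

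The counts followed these sequences in part. Mir181a-1 and Mir181a-2 held nearly the same counts, 205 and 211 in control replicate 1, 438 and 436 in control replicate 2, and 298 and 298 in control replicate 3. In Cer replicates 1, 2 and 3 they held 93 and 93, 469 and 482, and 391 and 402. The largest difference between these 2 rows in any library was 2.84%, so they do not measure miR-181a independently. Whether reads of the shared sequence were counted on both rows or divided between them is not given in the sources used here. Mir181b-2 held between 15 and 76 counts more than Mir181b-1 in every library, a difference of 11.3% to 18.8%. The Mir181d row, whose hairpin shares at most 13 bases with either Mir181b hairpin, was within 9.09% of Mir181b-2 in every library. The 6 rows are thus not 6 independent measurements.

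The libraries held 800810 to 2760015 counts in total, and the family took a small part of them. As the sum of the 6 rows, it made up 0.129% ± 0.0324 of the counts in control and 0.0778% ± 0.0182 in Cer libraries (SD, n = 3 each). The control libraries lay between 0.106% and 0.166% and the Cer libraries between 0.0567% and 0.0886%, without overlap. If Mir181a-1 and Mir181a-2 held the same reads and were counted once, the shares were 0.104% ± 0.0270 and 0.0625% ± 0.0151 (SD, n = 3 each). Without control replicate 2, the highest of the 6 libraries, the difference in the share of the 6 rows, -0.0513 percentage points, was -0.0328. Fewer vesicles with miR-181, less miR-181 per vesicle and more of other miRNAs cannot be told apart in such shares. Ranked by mean level among the 418 rows with enough counts to be tested, the family lay near the middle, from place 186 for Mir181a-2 to place 225 for Mir181c. The lowest single count was 44, for Mir181c in Cer replicate 1, with an exact 95% Poisson interval of 32.0 to 59.1 that covers counting error only.

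All 6 rows were lower in exosomes of Cer-treated cells, by log2 fold changes of -0.67 to -0.54. In each row the 3 Cer libraries lay below the 3 control libraries, as they did in 25.1% of the 418 rows tested. Without regard to the pairing of libraries by replicate number, none of the 6 passed both thresholds for a call, where 11.5% of all rows did. With that pairing in the model 5 of the 6 passed under the TMM scaling used here, where 20.8% of all rows did. These 5 calls did not hold under every other scaling tried. The pairing was inferred from these same counts and not from the labels. The levels below are normalized counts relative to library size (CPM), with library sizes adjusted by the TMM method, and the test was edgeR's quasi-likelihood test across the 418 rows with Benjamini-Hochberg adjustment. Following the thresholds of the study, a call needed an adjusted p of at most 0.05 together with a log2 fold change of 0.6 or more in either direction. The study calls its replicates biological, but neither it nor the labels tie each library to a separate culture, so the p-values measure the spread between these libraries, which may be technical.

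**Figure D1:**
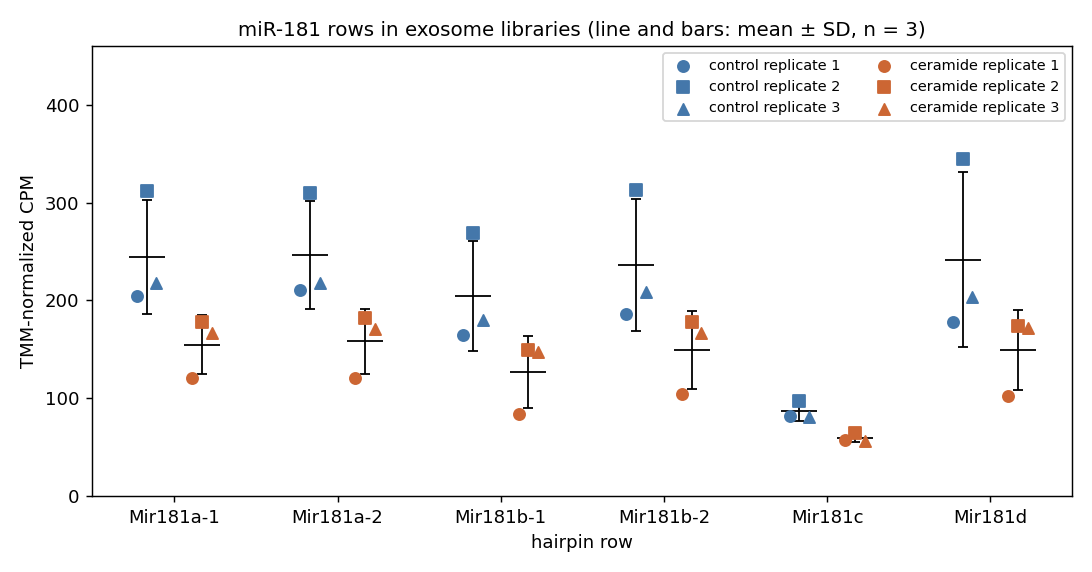
Normalized level (CPM, vertical axis) of the 6 miR-181 rows in the 3 control (blue) and 3 Cer (orange) libraries, with the symbol giving the replicate number and black lines the mean ± SD. In every row the 3 Cer libraries lie below the 3 control libraries, and control replicate 2 is the highest library, at 344 CPM for Mir181d.

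miR-181a, the member best studied in lymphocytes, is counted on Mir181a-1 and Mir181a-2. Mir181a-1 had 205, 311 and 218 CPM in control replicates 1, 2 and 3, and 121, 178 and 166 CPM in Cer replicates 1, 2 and 3. Control replicate 2 was the highest and Cer replicate 1 the lowest library, and the groups did not overlap. The log2 fold change of Mir181a-1 was -0.65 (standard error 0.21, 95% interval -1.15 to -0.14, adjusted p = 0.072 from edgeR). With the replicate number as a block it was -0.64 (standard error 0.11, adjusted p = 0.0061), which passed both thresholds. Mir181a-2 had 246 ± 55.4 CPM in control and 158 ± 32.8 CPM in Cer libraries (SD, n = 3 each). In this row the log2 fold change was -0.62 (adjusted p = 0.081 from edgeR). With the block the adjusted p of Mir181a-2 was 0.0077 in the same test.

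miR-181b shares its chromosome 1 and 2 clusters with miR-181a. Mir181b-1 had 165, 269 and 180 CPM in control replicates 1, 2 and 3, and 84.5, 149 and 148 CPM in Cer replicates 1, 2 and 3. The order of the libraries was that of Mir181a-1, again without overlap. The log2 fold change of Mir181b-1 was -0.66 (standard error 0.27, 95% interval -1.30 to -0.02, adjusted p = 0.13 from edgeR), and with the block the adjusted p was 0.013. Mir181b-2 had 236 ± 67.4 CPM in control and 149 ± 39.8 CPM in Cer libraries (SD, n = 3 each). Its libraries did not overlap either, and its log2 fold change was -0.64 (adjusted p = 0.13 without and 0.0097 with the block, edgeR).

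miR-181d, from the chromosome 8 cluster, is the closest in sequence to miR-181b. Mir181d had 178, 344 and 203 CPM in control replicates 1, 2 and 3, and 103, 174 and 172 CPM in Cer replicates 1, 2 and 3. Only 178 against 174 CPM separated the groups, and control replicate 2 stood farther from the other controls than in any other row of the family. The log2 fold change of Mir181d was the largest of the 6 in size, -0.67, and also the least precise (standard error 0.30, 95% interval -1.39 to 0.04, adjusted p = 0.15 from edgeR). With the block the adjusted p was 0.018.

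miR-181c, the other member of that cluster, behaved more evenly. Mir181c had 81.8, 97.4 and 80.5 CPM in control replicates 1, 2 and 3, and 57.2, 64.8 and 56.6 CPM in Cer replicates 1, 2 and 3. The lowest control library lay above the highest Cer library by more than the range within the Cer group. This gap was smaller than the range within the control group. Its log2 fold change was -0.54 (standard error 0.14, 95% interval -0.86 to -0.21, adjusted p = 0.039 from edgeR), so it passed the threshold on p and missed that on fold. With the block it was -0.54 (adjusted p = 0.0039), again short of 0.6. Its adjusted p without the block was above 0.05 in each of the 6 fits that left out 1 library, from 0.051 to 0.13. The spread between replicates of Mir181c was 10.9% of the mean in control and 7.64% in Cer libraries. For the other 5 rows it was 22.5% to 37.1% and 19.4% to 29.1%. The median over all rows tested was 10.4% in control and 14.2% in Cer libraries, so the other 5 rows were the more variable ones.

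**Figure D2:**
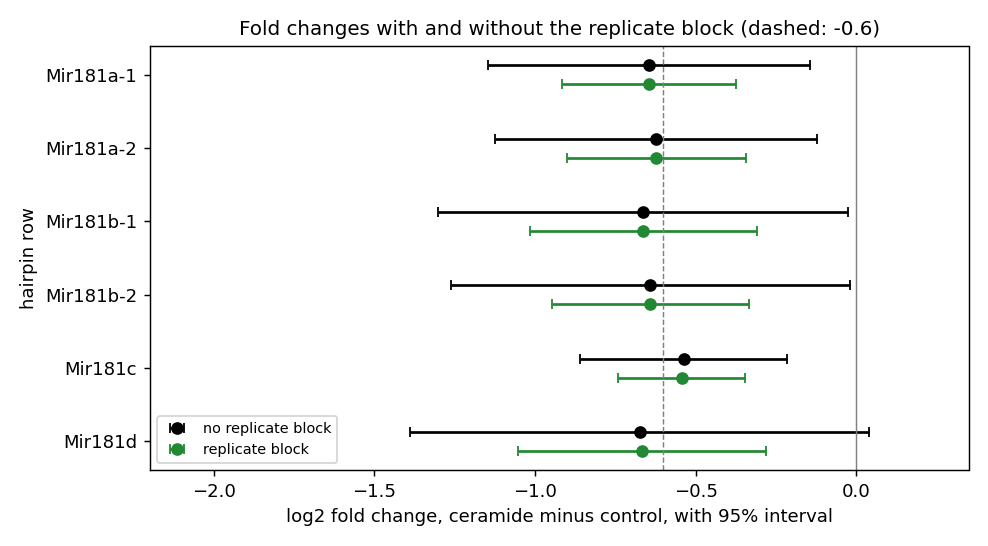
Log2 fold change of each miR-181 row (horizontal axis, Cer minus control) with its 95% interval from edgeR's quasi-likelihood fit, without (black) and with (green) the replicate number as a block; the dashed line marks -0.6. The estimates hardly move between the fits, while the intervals are narrower with the block, and for Mir181d the interval without it reaches 0.04.

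Set against all rows, 0 of the 6 members were called without the block, where 11.5% of the 418 rows were called and 8.37% were called lower and 3.11% higher in Cer. At an unadjusted p of 0.05, 5 of the 6 passed, and so did 36.6% of all rows. DESeq2 and limma-voom also called 0 of the 6. Over all rows they called 38 of the 1058 with a count and 49 of the 418 tested. DESeq2 can leave rows of low count without an adjusted p, so its share among adjusted rows may be higher. By adjusted p alone 1 of the 6 passed, Mir181c, where 12.7% of all rows passed and were lower. With the replicate block 5 of the 6 were called, where 20.8% of all rows were called and 11.7% called lower, and all 6 passed on adjusted p, where 24.9% of all rows passed and were lower. Cer libraries lay wholly below control libraries in 6 of the 6 members and in 25.1% of all rows. The log2 fold change was below 0 in 6 of the 6 members and in 50.7% of all rows, with a median of -0.64 over the members and -0.0077 over all rows tested.

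**Figure D3:**
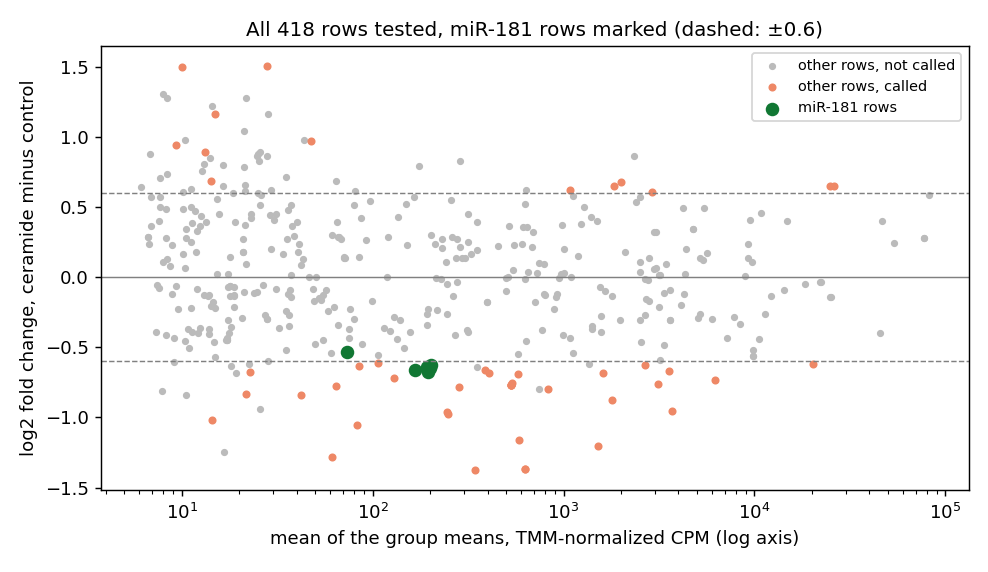
Log2 fold change (vertical axis, Cer minus control) against mean normalized level (horizontal log axis, CPM) of the 418 rows tested, with called rows in orange and the miR-181 rows in green; dashed lines mark ±0.6. The 6 green points lie close together between -0.67 and -0.54, among rows of middle abundance.

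The calls with the block depended on the scaling between libraries. The 5 calls were made with TMM factors, while with DESeq2's size factors or upper-quartile factors in the same blocked fit 0 of the 6 were called, and with library size alone all 6 were. In each of these fits the 6 rows were lower in Cer with an adjusted p of at most 0.05, and it was the fold threshold that parted them, since the log2 fold changes were -0.59 to -0.47 with DESeq2's size factors and -0.74 to -0.62 with library size alone. These blocked fits with other scalings were chosen after seeing the data.

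Control replicate 2 moved the values more than any other library. Its level in the family was 1.20 (Mir181c) to 1.81 (Mir181d) times the mean of the other 2 controls, while the median over all rows tested was 0.985. Without control replicate 2 the log2 fold changes shrank to between -0.42 (Mir181c) and -0.31 (Mir181d), and the adjusted p from edgeR was 0.13 to 0.45. Cer replicate 1 stood at 0.569 to 0.942 times the mean of the other Cer libraries, against a median of 1.03 over all rows. Without it the log2 fold changes shrank to between -0.53 (Mir181c) and -0.48 (Mir181b-2). Without any of the other libraries those of the rows other than Mir181c grew in size. In the blocked fit without both libraries numbered 2, the log2 fold changes were -0.51 to -0.42 and 0 of the 6 rows were called, though in that fit, with 4 libraries, none of all rows was. The 6 rows remained lower in Cer in every fit that left out 1 library. As the groups did not overlap in these rows, such fits left little room for a change of direction. What set control replicate 2 apart was not tested.

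Library pairs with the same number all had lower miR-181 in Cer, in 6 of the 6 rows, as did 37.3% of all rows. Since the groups did not overlap in these 6 rows, no pairing could have given another direction. For pair 1 the log2 ratio of Cer to control was between -0.96 (Mir181b-1) and -0.52 (Mir181c), for pair 2 between -0.98 (Mir181d) and -0.59 (Mir181c), and for pair 3 between -0.51 (Mir181c) and -0.24 (Mir181d). The rows of miR-181a, miR-181b and miR-181d thus differed least in pair 3, while Mir181c gave -0.52, -0.59 and -0.51 in the 3 pairs. The labels give lane 1 for both libraries of pair 1, lane 4 for the other control libraries and lane 2 for the other Cer libraries. Both libraries of pair 1 also carry sample number 1, so they may come from separate runs, and in none of the 3 pairs can run and treatment be told apart from the labels.

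**Figure D4:**
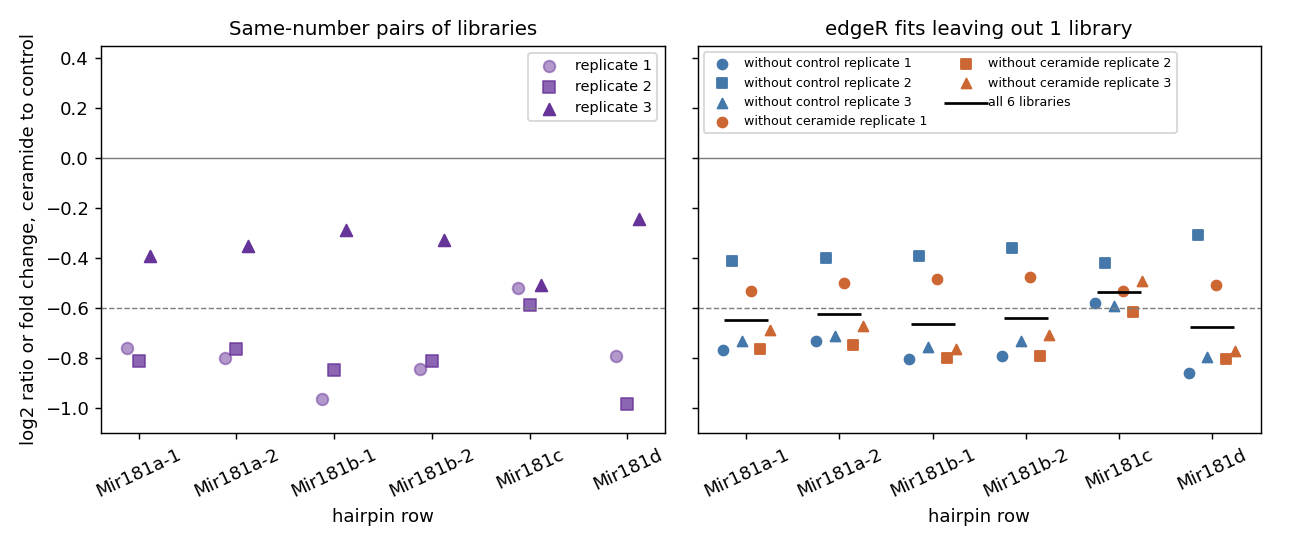
Left, log2 ratio of Cer to control for each miR-181 row within pairs of libraries of the same replicate number; right, log2 fold change from edgeR fits that leave out 1 library each, with the black line for all 6 libraries. All values lie below 0. On the left, pair 3 is nearest to 0 in every row, although for Mir181c the pairs are close together. On the right, leaving out control replicate 2 gives the values nearest to 0, up to -0.31 for Mir181d.

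Levels of the rows were compared per length of hairpin, although the reads come from the much shorter mature miRNAs and need not scale with that length. On this scale the 5 rows other than Mir181c were within their SDs of each neighbour. In control libraries Mir181d had 336 ± 124 CPM per 100 bases of hairpin, Mir181a-2 had 324 ± 72.9, Mir181a-1 had 281 ± 66.9, Mir181b-2 had 265 ± 75.8 and Mir181b-1 had 256 ± 70.2 (SD, n = 3 each). The first places of the order depended on the scale, since without division by length Mir181a-2 had 246 ± 55.4 CPM and Mir181d 242 ± 89.6 CPM (SD, n = 3 each). Mir181c was lower, at 97.3 ± 10.6 CPM per 100 bases, below Mir181b-1 by more than both SDs. In Cer libraries Mir181a-2 (208 ± 43.2) and Mir181d (208 ± 56.5) were highest and Mir181c was again lowest, at 66.9 ± 5.11 CPM per 100 bases (SD, n = 3 each).

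Ratios of members within a library do not depend on the scaling between libraries, and 3 of them were compared. The log2 ratio of the miR-181a rows to the miR-181b rows was 0.17 ± 0.07 in control and 0.20 ± 0.14 in Cer libraries (SD, n = 3 each, exact permutation test, two-sided, p = 0.8, adjusted p = 0.8). The log2 ratio of Mir181c to Mir181d was -1.43 ± 0.36 and -1.29 ± 0.40 (exact permutation p = 0.7, adjusted p = 0.8). The log2 ratio of the chromosome 1 to the chromosome 2 cluster was -0.10 ± 0.00268 and -0.13 ± 0.02 (exact permutation p = 0.2, adjusted p = 0.6). With 3 libraries against 3 the exact test cannot give a p under 0.1, so none of these comparisons could have passed 0.05. The differences, 0.03 and 0.13, were smaller than the spread between replicates for the first 2 ratios. For the last ratio the difference was -0.0229, slightly larger in size than the SD of the Cer group, 0.0195, and much larger than that of the controls, 0.00268. Even so, Cer replicate 3, at -0.10, lay within the range of the controls. Both clusters encode the same 5p miRNAs, so this ratio depends on how shared reads were assigned and cannot show whether the clusters differ.

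The rows most like Mir181a-2, the member with the most counts, were sought by Pearson correlation of log2 CPM over the 6 libraries, among 205 rows outside the family with at least 100 CPM. They were Mir28a (r = 0.96), Mir92-1 (r = 0.94), Mir100 (r = 0.94), Gm24083 (r = 0.94) and Mir92-2 (r = 0.94). All points share the same 6 libraries and scaling, and the group difference itself adds to r. Mir100 fell from 711 ± 110 CPM in control to 438 ± 57.0 CPM in Cer libraries (SD, n = 3 each, log2 fold change -0.69, adjusted p = 0.023 from edgeR), and Mir92-2 fell from 502 ± 30.6 CPM in control to 310 ± 69.6 CPM in Cer libraries (log2 fold change -0.69, adjusted p = 0.038). The log2 fold changes of Mir28a, Mir92-1 and Gm24083 were -0.41, -0.52 and -0.12, with adjusted p of 0.052, 0.11 and 0.28. None of these 5 rows shares a stretch of 18 bases with the miR-181 hairpins.

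Because miR-181 is known from neurons and from lymphocytes, lists of neuronal and of blood cell miRNAs were read from the same fit. Of 14 neuronal names 12 were in the table, all 12 were tested, 3 were called lower in Cer and 0 higher, and the same 3 were called with the block, where 8.37% of all rows were called lower without and 11.7% with the block. DESeq2 called 2 and limma-voom 3 of the 12. Over all rows they called 38 of the 1058 with a count and 49 of the 418 tested, and the share for DESeq2 may be higher among rows it adjusted. In edgeR 5 of the 12 had an unadjusted p of at most 0.05, as did 36.6% of all rows. The median log2 fold change of the 12 was -0.44 and fell on the Mir124a rows, 3 rows with nearly the same counts. The called rows were Mir138-1, which has a role at dendritic spines, with a log2 fold change of -0.76 (adjusted p = 0.0053), Mir128-2, abundant in brain, with -0.78 (adjusted p = 0.0026), and Mir153 with -0.84 (adjusted p = 0.019). The summed level of the 12 neuronal rows was 8900 to 10093 CPM in control and 6785 to 7352 CPM in Cer libraries. Most of this sum lay on Mir138-1, with mean levels of 3930 CPM in control and 2315 CPM in Cer libraries, and Mir138-2, with 3381 and 2918 CPM. The sum therefore says little about the other rows of the list. Mir124a-1, a defining miRNA of neurons, was present at low levels, 19.0 CPM or more in each control and 14.9 CPM or less in each Cer library (log2 fold change -0.43, adjusted p = 0.16). Cer libraries also lay wholly below control libraries in 25.1% of all rows. Of the 12 neuronal rows 9 were lower and 3 higher in Cer. The more abundant Mir9-2 and Mir9-3 each had a log2 fold change of 0.14, and Mir132 one of -0.0081, and none of these was called. Of the neuronal rows with the most counts, Mir138-2, the other miR-138 row, had a log2 fold change of -0.21 (adjusted p = 0.26). Mir137 had one of 0.24 (adjusted p = 0.091), and neither was called. Mir128-1, the other miR-128 row, had one of -0.55 (adjusted p = 0.0053 from edgeR) and missed the threshold on fold.

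Of 9 blood cell names 6 were in the table and 5 were tested. None of the 5 was called in either direction by edgeR with or without the block, nor by DESeq2 or limma-voom. In edgeR 11.5% of all rows were called without and 20.8% with the block. At an unadjusted p of at most 0.05 in edgeR 1 of the 5 passed, where 36.6% of all rows did. The median log2 fold change of the 5 was 0.01. The summed level of the 6 rows in the table was 327 to 369 CPM in control and 289 to 340 CPM in Cer libraries, and no row of the list was at 0 in all libraries. The erythroid Mir451a had 36.8 ± 7.07 CPM and 37.6 ± 3.86 CPM (SD, n = 3 each, log2 fold change 0.01, adjusted p = 0.98), the myeloid Mir223 had a log2 fold change of 0.58 (adjusted p = 0.055), and Mir486, with the most counts of the list, one of -0.26 (adjusted p = 0.27). Of 5 muscle names 4 were tested, with a median log2 fold change of -0.00073. edgeR called 0 of the 4, where 11.5% of all rows were called. At an unadjusted p of at most 0.05 in edgeR 1 of the 4 passed, where 36.6% of all rows did. DESeq2 called 0 and limma-voom 1 of the 4. The log2 fold changes of Mir1a-1, Mir206 and Mir133a-1 were 0.30, 0.60 and -0.30, with adjusted p of 0.30, 0.054 and 0.28. The liver miRNA Mir122 had 56.5 ± 5.04 CPM in control and 74.4 ± 0.896 CPM in Cer libraries (SD, n = 3 each, log2 fold change 0.39, adjusted p = 0.064, unadjusted p at most 0.05 in edgeR), and it was called by none of the 3 tools. The medium held bovine serum, and whether serum vesicles added to the miR-181 counts was not tested.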

How the data were processed

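Small RNA of exosomes was sequenced in 6 libraries (QIAseq miRNA kit). The authors trimmed reads with Cutadapt 1.15, aligned them to GRCm38 with STAR 2.5.3a, assigned them to miRNA genes of GENCODE, and the deposited values are raw counts per hairpin gene. Not given in the sources used here are the GENCODE release, whether strand was used, and how molecular identifiers and reads with several alignments were treated, so the Poisson interval covers counting error only. Names and coordinates came from GENCODE M21 (1894 of 1973 rows matched).

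Groups came from the labels. Counts were tested with edgeR 4.0.16 in R 4.3.3 (TMM, filterByExpr, 418 rows kept, condition as the only term, all 6 libraries). DESeq2 1.42.0, limma-voom (limma 3.58.1), other scalings and filters, joined rows, lane, the block and left-out libraries were alternatives. The procedure was tested on simulated counts with changes larger than those of the family, so that test does not cover changes near the fold threshold. Library deviations from group means correlated at 0.59, 0.43 and 0.75 for replicates 1, 2 and 3 of equal number, against -0.59 to 0.10 for unequal numbers. Within each group the 3 deviations of a row sum to 0, so positive values for equal numbers draw the others towards negative ones. Equal numbers were taken as pairs, on the data and not the labels. The blocked p-values thus rest on a pairing inferred from the same counts. Named rows were the 6 members, the 5 rows most like Mir181a-2, and in each list the rows with the most counts and those called. Mir124a-1, Mir9-2, Mir9-3, Mir132 and Mir128-1 were added after their values were seen. Members and lists were chosen with earlier results of these data known.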

Additional observations from a re-analysis of the deposited data

How the results depend on the processing

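The 6 miR-181 rows were lower in Cer in all 16 alternatives set for them. In the 6 that left out 1 library, the lack of overlap between groups left little room for another direction. Only lane 1 held libraries of both groups, so the fit with the lane number as a term compared Cer replicate 1 with control replicate 1 alone. It is no adjustment for lane over all libraries. Mir181a-1, Mir181a-2, Mir181b-1, Mir181b-2 and Mir181d were called in 1 of the 16, the replicate block, and Mir181c in 1, library size alone. The number of miR-181 rows called, 0 as reported, was 1 with library size alone, 5 with the replicate block, 6 with the block and library size alone, and 3, 0 and 5 in blocked fits without pair 1, 2 or 3. The number with an adjusted p of at most 0.05, 1 as reported, was 0 with DESeq2's size factors in edgeR, upper-quartile factors, no filter, DESeq2 or the lane number as a term, 0 in each fit without 1 library, 6 with the block under every scaling, and 5, 0 and 6 in the blocked fits without pair 1, 2 or 3. Over all rows, 48 were called, 87 with the block, 82, 83 and 89 with the block and DESeq2's size factors, upper-quartile factors or library size alone, 29 with the lane number as a term, 28 to 55 without 1 library, and 78, 0 and 87 in the blocked fits without pair 1, 2 or 3. With all libraries and TMM 13 of the 48 were higher and 35 lower, against 21 and 26 with DESeq2's size factors, 23 and 28 with upper-quartile factors, and 4 and 42 with library size alone. The blocked fits with other scalings or without a pair were added after seeing the data, and the cause of these shifts was not tested. Without 1 library, the Cer minus control difference of the miR-181a to miR-181b log2 ratio ranged from -0.047 to 0.081 and that of Mir181c to Mir181d from -0.090 to 0.29, so neither kept its sign. The replicate block gave paired p of 0.75, 0.5 and 0.25 for the 3 ratios (exact sign-flip permutation, 0.25 being the smallest possible). The lowest count of a member, 44, came from the library with the smallest total, 800810.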
